A study of Gallus gallus with 4 samples.

Results

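The granins and the enzymes that mature peptide hormones were followed in chicken gonads through 9 genes, which are CHGA, CHGB, SCG2, SCG3 and SCG5 among the granins and PCSK1, PCSK2, CPE and PAM among the enzymes. The members are all 22 probe sets that carry any of these symbols in the platform annotation, out of 38382 probe sets and 13008 named genes examined. They were chosen by their ovary and testis values in these same pools, so their differences are given as a description and carry no test. Whole ovaries and whole testes came from 17-week-old birds of inbred CB congenic lines bred from White Leghorn chickens, with no treatment named. RNA of 4 animals went into each pool and each pool onto 1 Affymetrix Chicken Genome Array, which gave 2 ovary pools and 2 testis pools from 16 animals in all. A pool gives no view of single birds, and in whole tissue fewer cells of a type and less RNA per cell cannot be told apart.

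Granins are acidic proteins that are packed with peptide hormones into the dense-core granules of endocrine cells and neurons, and they are cut into smaller peptides themselves. Inside the granule the prohormone convertases, encoded by PCSK1 and PCSK2, cut precursors after pairs of basic residues. Carboxypeptidase E, encoded by CPE, trims the exposed basic residues, and the enzyme encoded by PAM turns a C-terminal glycine into an amide that many peptides need for activity. The product of SCG5, known as 7B2 in mammals, escorts PCSK2 through the secretory pathway and inhibits it until it is active.

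The values are deposited log2 expression values, on which a step of 1 is a doubling, and differences are ovary minus testis. A background level of log2 3.32 was taken from the 99th percentile of 689 probe sets whose names mark sequences other than the chicken transcripts, and 55.1% to 55.7% of probe sets lay above it in each pool. Where neither pool of the dimmer organ exceeded that level, the fold is a lower bound against it. The labelled organs matched their markers, since GDF9, ZP3, FOXL2 and CYP19A1 (4 of 4) were higher in ovary and ACR, TSSK6, DMRT1 and SOX9 (4 of 4) in testis (limma, adjusted p under 0.05), although DMRT1 was called at only 2 of its 7 probe sets and not with their median (adjusted p = 0.424). The call of ZP3 ended without ovary pool 1 (adjusted p = 0.0746), ovary pool 2 (0.0842) or testis pool 2 (0.0528).

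Chromogranin A, the founding granin, had the widest gap between the organs among the members. At the brightest of its 3 probe sets CHGA stood at log2 13.52 and 13.30 in the ovary pools and at 3.76 and 3.43 in the testis pools. Both ovary pools were far above both testis pools, and the means were 13.41 ± 0.16 and 3.59 ± 0.23 (SD, n = 2 pools each). The difference was 9.82, a measured 903-fold. The testis values lay just over the background level, and against the highest value of the probe sets for other sequences, log2 3.97, the excess in ovary was at least 695-fold. The second probe set of CHGA showed the same order, with 12.09 and 11.87 in ovary against 3.64 and 3.71 in testis. The third was dim, at 3.14 and 3.70 in ovary and 1.94 and 2.04 in testis.

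The other classical granins were also higher in ovary, by smaller amounts. CHGB encodes chromogranin B and has 1 probe set, which read 7.78 and 7.69 in the ovary pools and 2.71 and 3.12 in the testis pools. Testis was at background in both pools, so that CHGB was at least 21.3-fold higher in ovary. Against log2 3.97, the highest value of the probe sets for other sequences, the bound was 13.6-fold. SCG3, whose product binds granule membranes and helps to sort chromogranin A into granules, was bright in ovary at 11.12 and 10.90. Its testis values, 6.10 and 6.27, were well above background, so SCG3 was measured in both organs, 28.3-fold higher in ovary. SCG2, the precursor of secretoneurin, stood at 6.96 and 6.76 in ovary and 5.04 and 4.90 in testis at its brightest probe set. The means were 6.86 ± 0.14 and 4.97 ± 0.10 (SD, n = 2 pools each), a difference of 1.89. Another SCG2 probe set read 7.50 and 7.25 in ovary against 4.11 and 3.82 in testis, a difference of 3.41. Both of these SCG2 probe sets placed ovary higher without overlap, while the size of the gap depended on the probe set. The rest of its 4 probe sets were dim. One read 3.25 and 4.05 in ovary against 2.03 and 2.58 in testis, and the last was at background in all pools.

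**Figure D1:**
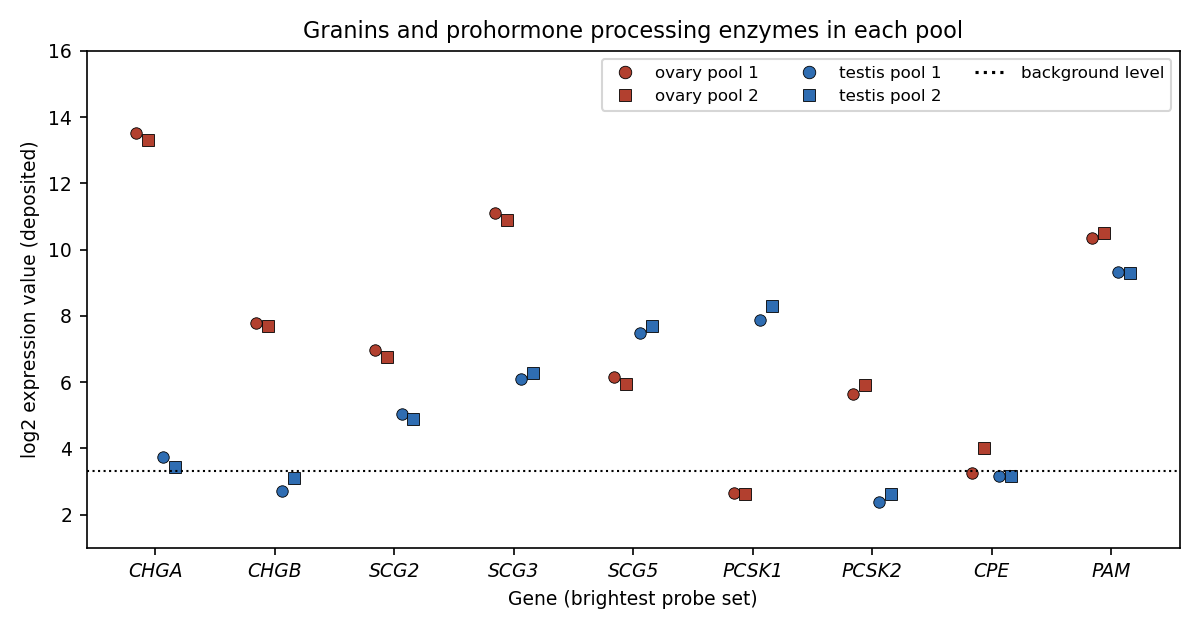
Deposited log2 expression values (y axis) of the brightest probe set of each of the 9 genes (x axis), with ovary pools in red, testis pools in blue, pool 1 as circles and pool 2 as squares; the dotted line is the background level of log2 3.32. CHGA spans the widest gap, SCG5 and PCSK1 are the genes with both testis pools on top, and CPE lies near the dotted line in every pool.

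The convertase genes went opposite ways. PCSK1 encodes prohormone convertase 1, and its brightest probe set read 2.66 and 2.62 in the ovary pools and 7.88 and 8.30 in the testis pools. Ovary was at background in both pools, so that PCSK1 was at least 27.2-fold higher in testis. A second PCSK1 probe set agreed in order, with 2.55 and 2.93 in ovary against 7.04 and 7.58 in testis, at least 15.9-fold. Against log2 3.97 these bounds were 17.3-fold and 10.1-fold. The third PCSK1 probe set was at background in all pools. PCSK2 encodes prohormone convertase 2 and showed the mirror image, at 5.64 and 5.92 in ovary and 2.39 and 2.63 in testis. Testis was at background, and PCSK2 was at least 5.49-fold higher in ovary, or at least 3.50-fold against log2 3.97. Its other probe set lay close to background, at 3.50 and 3.59 in ovary and 3.17 and 2.79 in testis. Each organ thus had 1 of the 2 granule convertases above background in both pools at its brightest probe set.

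SCG5, whose product serves PCSK2, did not share its direction. The one SCG5 probe set above background read 6.16 and 5.94 in ovary and 7.49 and 7.71 in testis. Both testis pools were above both ovary pools, and SCG5 was 2.93-fold higher in testis, with a difference of -1.55. The other 3 probe sets of SCG5 lay at background in all 4 pools, between 1.96 and 2.09, so that this direction rests on a single probe set. That probe set belongs to a class, marked by its suffix, whose probes can match more than 1 transcript, as do the brightest probe sets of CHGA, SCG2 and PAM.

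Of the enzymes that act after the convertases, PAM had a small difference at its brightest probe set and CPE lay near background. PAM was bright in both organs, at 10.36 and 10.49 in ovary and 9.32 and 9.30 in testis, and was 2.17-fold higher in ovary. The gap between the nearest ovary and testis pools was 1.04. The other 2 probe sets of PAM were at background in all pools. CPE read 3.25 and 4.01 in ovary and 3.15 and 3.18 in testis at its only probe set. Only ovary pool 2 was above background, so a level of CPE was not measured in either organ by both pools. Its difference, 0.46, fell to 0.08 without ovary pool 2.

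**Figure D2:**
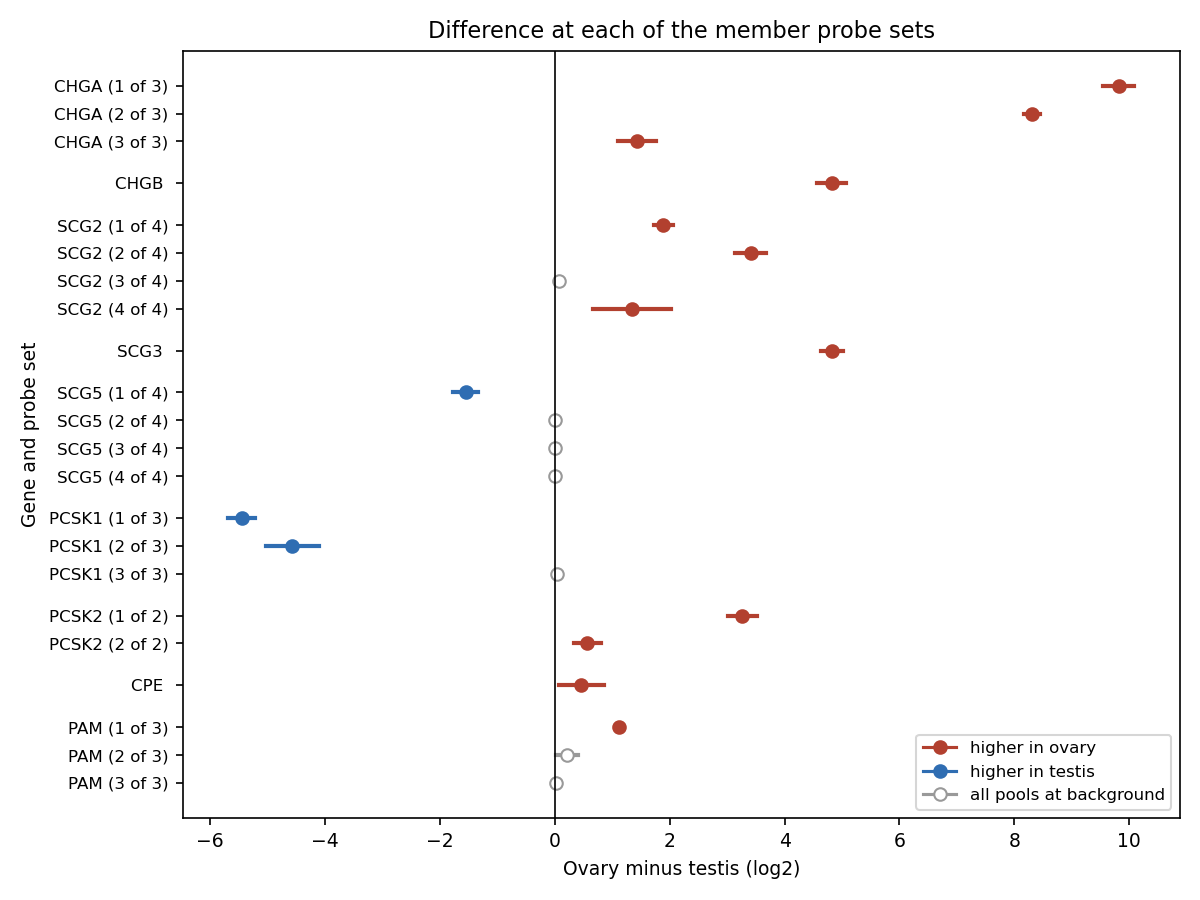
Difference between ovary and testis (x axis, log2, positive where ovary is higher) at each of the 22 member probe sets, ordered within a gene from the brightest (y axis). Points are differences of means, bars run from the smallest to the largest difference between an ovary and a testis pool, and open grey points mark the 7 probe sets at background in all 4 pools. Every point of CHGA lies to the right and the filled points of PCSK1 and SCG5 to the left.

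Of the 22 member probe sets, 12 were above background in both pools of at least 1 organ, and 7 were at background in all 4. No gene had probe sets above background that disagreed in direction. At the brightest probe set of each gene the pools of the organs did not overlap for 9 of 9 genes, 7 higher in ovary and 2 in testis. Among the 7 is CPE, above background in ovary pool 2 alone, with a gap of 0.07 between the nearest pools. Of all genes 81.2% showed no overlap, 45.2% with ovary higher and 36.0% with testis higher. Differences of at least 4-fold toward ovary were found for 4 members (CHGA, CHGB, SCG3 and PCSK2) and toward testis for 1 (PCSK1). These are differences of means, and the bound of PCSK2 against log2 3.97, 3.50-fold, lay under that mark. Among all genes, 12.3% were at least 4-fold higher in ovary without overlap and 11.3% in testis. The median difference was 1.89 over the 9 genes and 0.01 over all 13008. Counted by probe set, 6 of the 22 were at least 4-fold higher in ovary and 2 in testis, against 8.52% and 8.89% of all probe sets. Since these values chose the members, nothing is read from either share. The next genes below the 4-fold mark were SCG2 at 3.71-fold and SCG5 at 2.93-fold.

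Positions were taken from the gene order of assembly GRCg7b, used only for chromosomes and neighbours. PCSK2 and CHGB lie on chromosome 3, SCG5 and CHGA on 5, CPE on 4, SCG2 on 9 and SCG3 on 10. PCSK1 and PAM are both on the Z chromosome, of which males carry a pair and females a single copy. The 609 Z-linked genes had a median difference of -0.39, against 0.02 for 12355 autosomal genes, so that PCSK1 lay with the Z-linked majority in direction and PAM against it. The value of PCSK1, -5.45, was below the 5th percentile of the Z-linked genes, -4.34. Of the 10 measured genes nearest to PCSK1 (5 on each side), limma called 1 toward ovary and 4 toward testis, and their differences ran from -3.14 to 2.11. For PAM the counts were 2 and 4, and of all Z-linked genes 16.6% were called toward ovary and 41.4% toward testis. Around CHGA, 6 of 10 neighbours were called in ovary and 3 in testis, with differences from -3.32 to 3.04, all smaller than that of CHGA. Across all genes, limma called 28.7% toward ovary and 24.3% toward testis.

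Genes with the most similar profile were sought by the Euclidean distance over the 4 arrays, after each probe set was centred on its own mean. With 2 organs this measure reflects mainly the size of the difference between them. Nearest to CHGA were KPNA7 (distance 0.27), LOC422811 (0.32) and LOC768589 (0.37), nearest to CHGB were CARD19, FMN2 and C4BPG (0.06 to 0.17), and nearest to SCG3 were INPP4B, APCDD1 and LAPTM4B (0.11 to 0.17). For PCSK2 they were RASSF6, PLK2 and HSPA12A (0.07 to 0.12), and for PCSK1 they were LRRIQ1, E2F8 and SLC28A3 (0.09 to 0.17).

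Other genes of peptide maturation, which were not members, were tested with limma. This list and those below were also drawn up with earlier results of these data known. Of 13 measured genes of 18 listed, 5 were called toward ovary and 2 toward testis, and 6 were not called (limma, Benjamini-Hochberg adjusted p under 0.05 over all probe sets), with a median difference of 0.29, against 28.7% and 24.3% of all genes called. CPXM2 is a relative of CPE that lacks the residues for catalysis in mammals, and it read 7.17 and 6.98 in ovary and 2.31 and 2.78 in testis. Testis was at background, and CPXM2 was at least 13.4-fold higher in ovary (limma adjusted p = 0.0036), called at 1 of its 2 probe sets. CPM, a membrane carboxypeptidase gene, was 8.09-fold higher in ovary (limma adjusted p = 0.00838), and RNPEP, which encodes aminopeptidase B, 4.73-fold (limma adjusted p = 0.00458). CTSV, the name under which the files hold the listed cathepsin gene, was 2.56-fold higher in ovary (limma adjusted p = 0.00192). In testis PCSK6, a convertase gene of the constitutive pathway, was at 9.04 and 9.01 against 5.19 and 5.72 in ovary, 11.9-fold higher (limma adjusted p = 0.00565). PCSK6 was called at 2 of its 4 probe sets. QPCT, which encodes the glutaminyl cyclase that caps peptides such as TRH, read 9.94 and 9.72 in testis and 5.65 and 5.72 in ovary, 17.7-fold higher in testis (limma adjusted p = 0.00144). PCSK5 did not pass, with a difference of -0.06 (SE 0.12, limma adjusted p = 0.782), and neither did the carboxypeptidase gene CPD, at -1.12 (SE 0.84, limma adjusted p = 0.474), which read 8.15 in ovary pool 1 and 6.19 in ovary pool 2. FURIN was at background in all pools. Without testis pool 1 the counts were 3 in ovary and 1 in testis, and without testis pool 2 again 3 and 1, with CPM at an adjusted p of 0.0575 and 0.0513 and PCSK6 at 0.0825 both times. Of 3 other granin-like precursors listed, none could be assigned a value, since the one symbol matched, GNAS, is that of a host gene and does not identify its granin-like transcript.

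Genes for the machinery of dense-core granules and regulated release were examined next. Of 26 measured genes of 39 listed, 13 were called toward ovary and 5 toward testis, and 8 were not called (median 0.67), against 28.7% and 24.3% among all genes. DOC2B, a calcium sensor for granule fusion, read 7.66 and 7.46 in ovary and 2.55 and 2.45 in testis, at least 18.9-fold higher in ovary (limma adjusted p = 0.00103). RPH3A, a RAB3 effector gene, was 19.4-fold higher in ovary (limma adjusted p = 0.0316), and VAMP2, the vesicle SNARE gene, at least 9.64-fold (limma adjusted p = 0.035). TSSC1, also known as EIPR1 and needed for granule sorting in mammals and worms, was 9.96-fold higher in ovary (limma adjusted p = 0.00148). In testis RIMS2, an active-zone scaffold gene, read 6.49 and 6.74 against 2.68 and 2.77 in ovary, an excess of at least 9.82-fold (limma adjusted p = 0.00185). RIMS2 was called at 1 of its 4 probe sets. ICA1, which encodes an islet autoantigen of granule membranes, was 10.2-fold higher in testis (limma adjusted p = 0.00763), SYT9 at least 3.68-fold (limma adjusted p = 0.00138) and SYT11 2.86-fold (limma adjusted p = 0.0387). The granule membrane protein genes PTPRN (0.05, SE 0.04) and PTPRN2 (0.57, SE 0.16) did not pass (limma adjusted p = 0.496 and 0.106). The counts were 4 and 2 without testis pool 1, 2 and 3 without testis pool 2, 3 in testis without either ovary pool, and 8 and 3 with low values set to the background level. The calls of VAMP2 (adjusted p = 0.223 and 0.196) and ICA1 (0.0745 and 0.0828) ended without testis pool 1 or 2, that of RPH3A ended without ovary pool 1 (0.103), ovary pool 2 (0.115) or testis pool 2 (0.0526), and that of SYT11 ended with any pool left out (0.0712 to 0.168). With the floor RPH3A was at 0.0606, VAMP2 at 0.0747 and SYT11 at 0.0713, and RPH3A was at 0.303 with the median of its 4 probe sets.

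**Figure D3:**
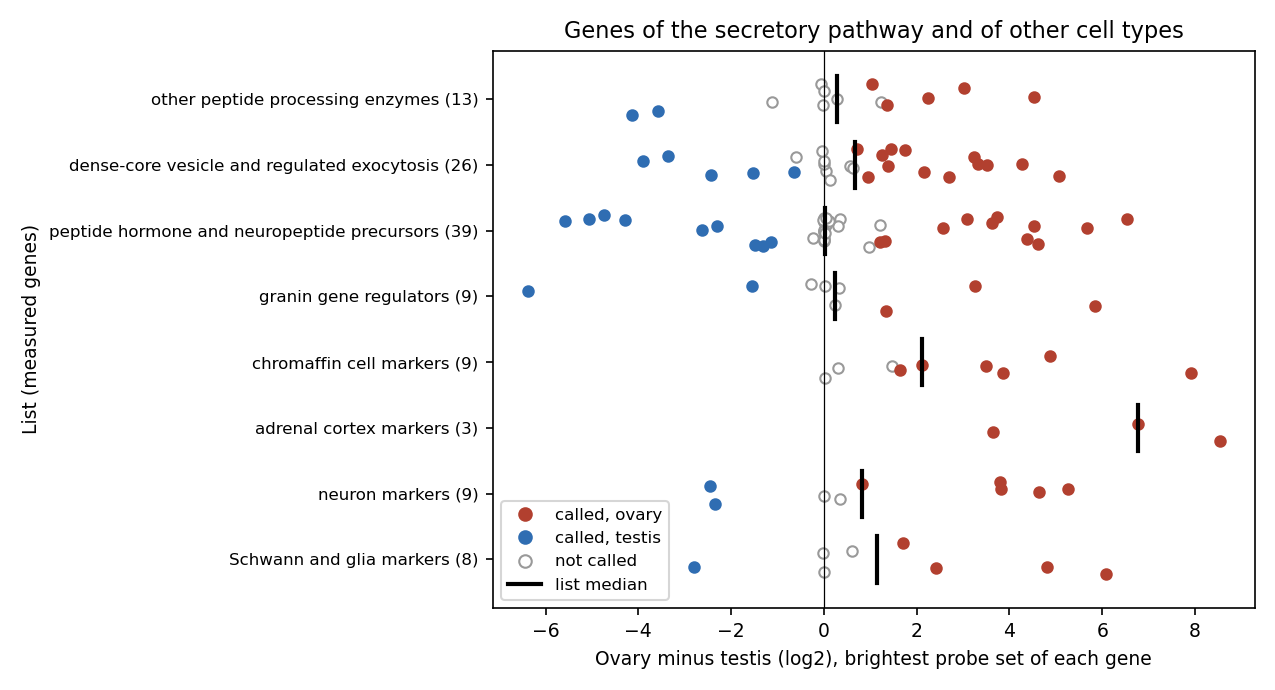
Difference between ovary and testis (x axis, log2, positive where ovary is higher) of every measured gene in 8 lists (y axis, number of measured genes in brackets); red and blue points were called by limma toward ovary and toward testis, open points were not called, and black bars are list medians. Points of the peptide precursors and of the granule machinery spread to both sides, while no chromaffin or adrenal cortex marker was called in testis.

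Peptide precursors, listed as substrates of convertases in general or of PAM, were called at shares close to those of all genes. Of 39 measured peptide precursor genes of 49 listed, 11 were called toward ovary and 9 toward testis, and 19 were not called, 15 of the 39 being at background in all pools. The median was 0.02, and 28.7% and 24.3% of all genes were called toward ovary and testis. In ovary GAL, the galanin precursor, read 10.14 and 9.58 against 3.70 and 2.94 in testis, a difference of 6.54 with 1 testis pool at background (limma adjusted p = 0.00541). TAC1, the precursor of substance P, was at least 25.5-fold higher in ovary (limma adjusted p = 0.00184), at 7.86 and 8.13 against 2.46 and 2.17. ADM, the precursor of the vasodilator adrenomedullin, was 24.4-fold higher (limma adjusted p = 0.00107), and EDN1, the precursor of endothelin-1, 23.1-fold (limma adjusted p = 0.00129).

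In testis ADCYAP1, the precursor of the peptide PACAP, read 7.61 and 7.80 against 2.02 and 2.24 in ovary, at least 20.9-fold higher (limma adjusted p = 0.00129). GCG, the proglucagon gene, whose product PCSK1 and PCSK2 cut into different hormones in mammals, was at 8.90 and 8.63 in testis and 4.02 and 3.40 in ovary, 33.3-fold higher in testis (limma adjusted p = 0.00484). TRH, the precursor of thyrotropin-releasing hormone, read 7.16 and 7.32 in testis against 2.50 in both ovary pools, an excess of at least 15.1-fold (limma adjusted p = 0.000793). NMB, the neuromedin B precursor, was 19.5-fold higher in testis (limma adjusted p = 0.00383). PENK, the proenkephalin gene, and CCK, the cholecystokinin gene, were bright in both organs and were chosen for mention after their values were seen. PENK stood at 12.38 and 12.57 in testis and 9.94 and 9.76 in ovary (limma adjusted p = 0.00322), and CCK at 11.00 and 11.10 against 8.61 and 8.87 (limma adjusted p = 0.00407). ADCYAP1, GCG, TRH and CCK were each called at 1 of their 2 probe sets. Without testis pool 1 the counts were 9 in ovary and 4 in testis, and without testis pool 2 they were 7 and 4. The call of GAL ended without testis pool 2 (adjusted p = 0.0539), and those of GCG (0.0715 and 0.0688) and CCK (0.0624 and 0.0659) ended without testis pool 1 or 2.

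**Figure D4:**
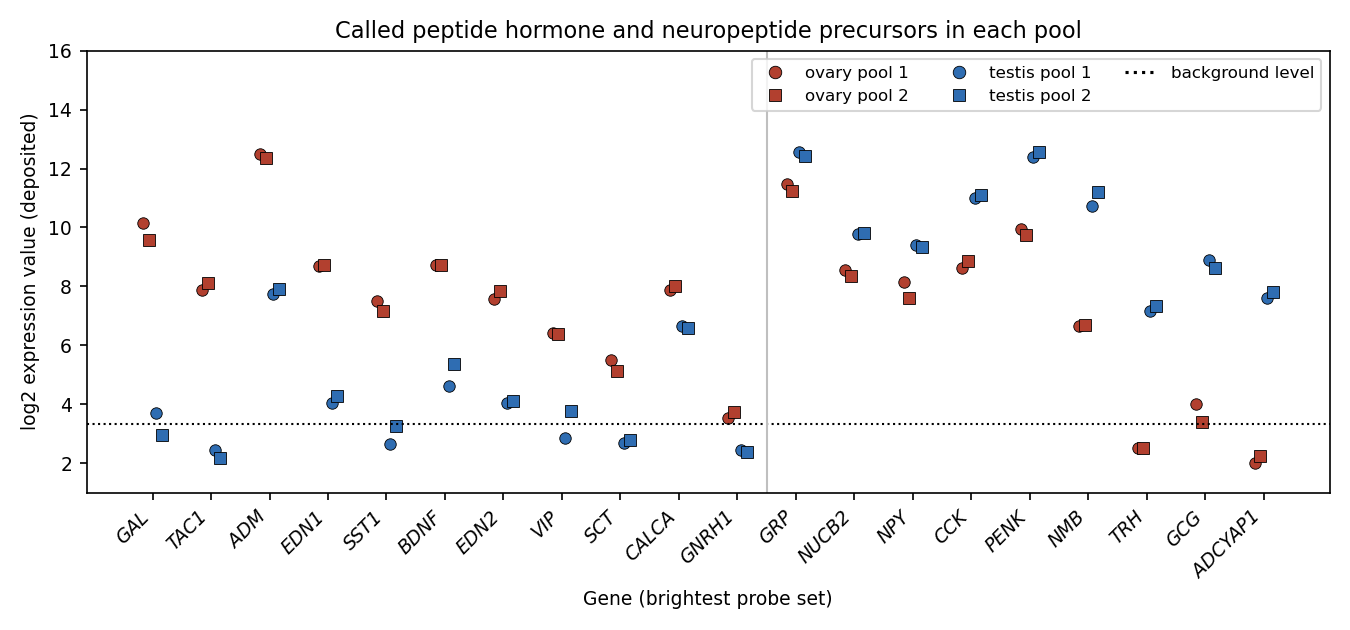
Deposited log2 expression values (y axis) of the 20 called peptide precursor genes (x axis), with the 11 called higher in ovary left of the grey line and the 9 called higher in testis right of it; colours, symbols and the dotted background level are as in the plot of the members by pool. ADM in ovary and PENK and GRP in testis reach above log2 12, and TRH and ADCYAP1 are below the dotted line in both ovary pools.

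Among transcription factors known for neuroendocrine genes, 9 of 12 listed were measured, with 3 called toward ovary, 2 toward testis and 4 not called (28.7% and 24.3% called among all genes, median 0.25). NEUROD1, a factor of neurons and endocrine cells, read 8.23 and 8.41 in ovary and 2.45 and 2.47 in testis, at least 31.9-fold higher in ovary (limma adjusted p = 0.000705). ISL1 was at least 6.02-fold (limma adjusted p = 0.00369) and EGR1 2.52-fold higher in ovary (limma adjusted p = 0.0155). ISL1 was called at 1 of its 2 probe sets. REST, the repressor that keeps neuronal and granin genes silent in other cells of mammals, was at 12.45 and 12.44 in testis and 10.82 and 10.98 in ovary, 2.93-fold higher in testis (limma adjusted p = 0.00341), with both of its probe sets called. CREM, a cAMP-responsive factor known for its high level in mammalian spermatids, was 83.6-fold higher in testis at its brightest probe set (limma adjusted p = 0.000903), but its other 2 probe sets were called higher in ovary. CREB1 did not pass (-0.28, SE 0.12, limma adjusted p = 0.236). The calls of ISL1 (adjusted p = 0.0631 and 0.0651) and REST (0.0602 and 0.0608) ended without testis pool 1 or 2, and that of EGR1 ended without ovary pool 1 (0.0679) or 2 (0.0625). The count in testis was 1 without testis pool 2.

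Chromaffin cells of the adrenal gland are rich in granins, and markers of these cells were examined too. In birds the adrenal glands lie against the gonads, and whether adrenal tissue entered any pool was not tested. Of 9 measured chromaffin markers of 12 listed, 6 were called toward ovary and 0 toward testis, and 3 were not called (median 2.11). The shares among all genes were 28.7% toward ovary and 24.3% toward testis. TH, which encodes the first enzyme of catecholamine synthesis, read 10.61 and 9.53 in ovary and 2.14 and 2.16 in testis, at least 108-fold higher in ovary (limma adjusted p = 0.0049). The vesicular monoamine transporter genes SLC18A1 (at least 16.1-fold, limma adjusted p = 0.00246) and SLC18A2 (14.5-fold, limma adjusted p = 0.00736) were called in the same direction. Each was called at 1 of its 2 probe sets. The transcription factor gene HAND2 was 11.3-fold higher in ovary (limma adjusted p = 0.0235), at 7.44 and 6.34 against 3.37 and 3.42 in testis. Those testis values lay just over the background level. DBH, which encodes the enzyme that makes noradrenaline, was above background in ovary pool 1 alone (5.32, against 2.53 in ovary pool 2) and did not pass (limma adjusted p = 0.501). DDC, also a gene of catecholamine synthesis, read 5.14 and 4.76 in ovary and 4.64 and 4.66 in testis. It did not pass (0.30, SE 0.16, limma adjusted p = 0.328). GATA3 was at background in all pools. Summed on the linear scale, the chromaffin list came to 2538 and 1473 in the ovary pools and to 139 and 142 in the testis pools. Without testis pool 1 or 2 the count in ovary was 2, with TH at an adjusted p of 0.0759 and 0.0767 and HAND2 at 0.182 and 0.168.

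Markers of the adrenal cortex were examined next, and 28.7% of all genes were called toward ovary and 24.3% toward testis. All 3 measured genes were called higher in ovary, CYP21A1, the steroid 21-hydroxylase gene, at 10.70 and 10.17 against 1.96 and 1.83 (at least 138-fold, limma adjusted p = 0.00167), MC2R, the corticotropin receptor gene, at least 59.2-fold (limma adjusted p = 0.00063) and MRAP, its accessory protein gene, at least 6.93-fold (limma adjusted p = 0.00547). All 3 were at background in both testis pools, where the summed list stood at 14.7 and 14.8, against 2380 and 1768 in ovary. CYP21A1 and MC2R were each called at 1 of their 2 probe sets. The call of MRAP ended without testis pool 1 (adjusted p = 0.081) or 2 (0.0808).

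Of 9 measured neuron markers of 14 listed, 5 were called toward ovary and 2 toward testis, and 2 were not called (28.7% and 24.3% among all genes, median 0.82, summed level 26605 and 26004 in ovary and 11196 and 11447 in testis). The neurofilament gene NEFM read 11.66 and 11.63 in ovary and 6.38 and 6.40 in testis, 38.1-fold higher in ovary (limma adjusted p = 0.000304), with NEFL 13.9-fold (limma adjusted p = 0.00321), STMN2 14.2-fold (limma adjusted p = 0.00483) and the vesicle protein gene SYP at a difference of 4.64 with 1 testis pool at background (limma adjusted p = 0.0151). ELAVL4, which encodes a neuronal RNA-binding protein, was higher in testis by 5.49-fold (limma adjusted p = 0.0025), and MAP2 by 5.12-fold (limma adjusted p = 0.0309). MAP2 was called at 1 of its 2 probe sets. GAP43 was at background in all pools. UCHL1 was the brightest gene of this list in both organs and weighs most in the sums. It read 13.99 and 14.04 in ovary and 13.16 and 13.22 in testis, 1.77-fold higher in ovary (limma adjusted p = 0.00355). With the median of its 3 probe sets UCHL1 was not called (limma adjusted p = 0.396). The call of MAP2 ended without testis pool 1 (adjusted p = 0.211) or 2 (0.183), leaving 1 in testis, and with the floor (0.0594), that of SYP ended without ovary pool 1 (0.0661) or 2 (0.0643), and that of STMN2 without testis pool 2 (0.0512).

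Of 8 measured Schwann cell and glia markers of 11 listed, 4 were called toward ovary and 1 toward testis, and 3 were not called (28.7% and 24.3% among all genes, median 1.15, summed level 2274 and 2440 in ovary and 413 and 488 in testis). FABP7 was 67.6-fold higher in ovary (limma adjusted p = 0.00182), CDH19 at least 11.3-fold (limma adjusted p = 0.00166), PMP22 5.37-fold (limma adjusted p = 0.0034) and SOX10 at a difference of 1.70 with 1 testis pool at background (limma adjusted p = 0.0449). SOX10 was called at 1 of its 2 probe sets. S100B was 6.96-fold higher in testis (limma adjusted p = 0.00774). GFAP and NGFR were at background in all pools. Without testis pool 1 or 2 the count in ovary was 2, with PMP22 at an adjusted p of 0.061 and 0.0621 and SOX10 at 0.212 and 0.22, and SOX10 was also lost without ovary pool 2 (0.0531) with quantile normalization (0.0634), the floor (0.0785), robust moderation (0.0527) and the median over its probe sets (0.0694).

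**Figure D5:**
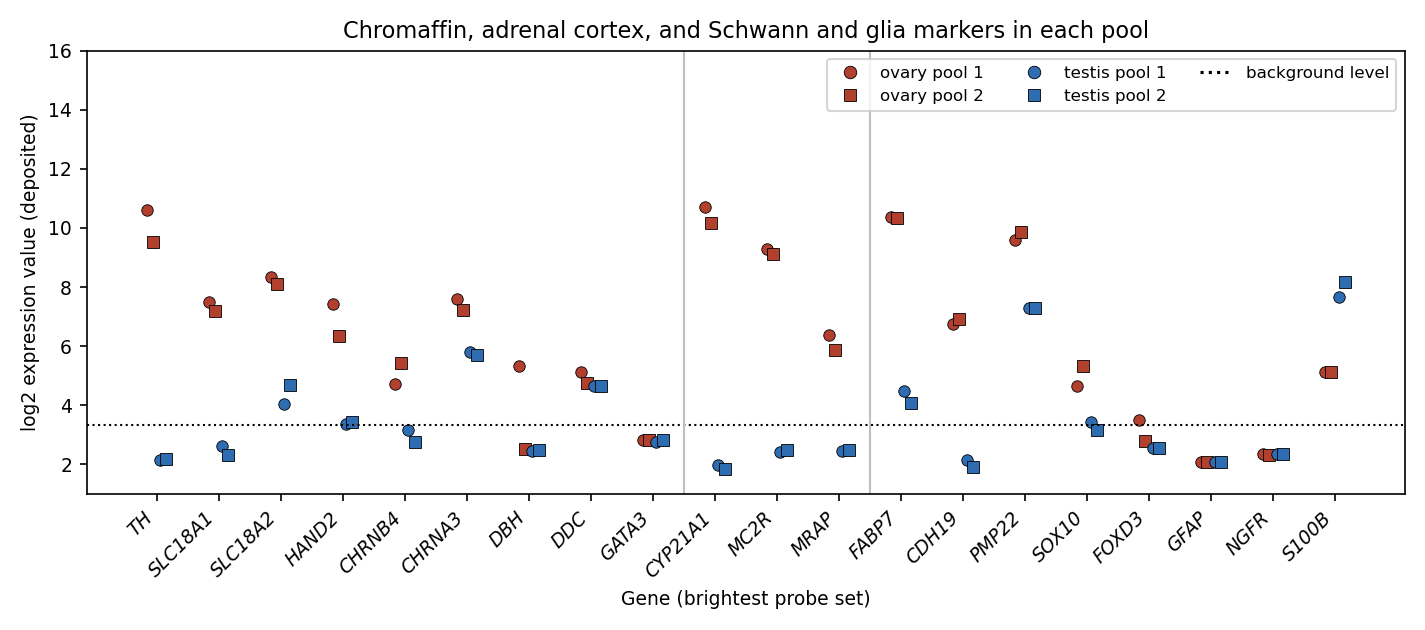
Deposited log2 expression values (y axis) of chromaffin markers (left), adrenal cortex markers (middle) and Schwann cell and glia markers (right), each measured gene on the x axis; colours, symbols and the dotted background level are as in the plot of the members by pool. TH, HAND2 and DBH differ between the ovary pools, and CYP21A1, MC2R and MRAP lie below the dotted line in both testis pools.

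The ovary pools were not alike in some of these markers. Ovary pool 1 exceeded pool 2 by 1.07 for TH, 1.10 for HAND2 and 0.53 for CYP21A1. For the other cortex markers the excess was 0.53 for MRAP and 0.18 for MC2R, and DBH was above background in pool 1 alone. For the members above background in both ovary pools the same difference was 0.22 for CHGA, 0.09 for CHGB, 0.20 for SCG2, 0.22 for SCG3 and 0.22 for SCG5, and it was negative for PCSK2 (-0.28) and PAM (-0.13). It ran from -0.69 to 1.10 over 7 chromaffin markers above background in both ovary pools, with a median of 0.37, and was 0.24 for SLC18A2 and 0.31 for SLC18A1. Over 3 such cortex markers it ran from 0.18 to 0.53, over 8 neuron markers from -0.85 to 0.31 and over 5 glia markers from -0.68 to 0.01. The members ran from -0.28 to 0.22, with a median of 0.20, against medians of 0.53 for cortex, 0.05 for neuron and -0.17 for glia markers. Ovary pool 1 was the higher for 5 of 7 members, 6 of 7 chromaffin markers and 3 of 3 cortex markers. The same held for 5 of 8 neuron and 2 of 5 glia markers. These ranges overlap, but they rest on 1 pair of ovary pools, and nothing is read from the overlap. The part of adrenal, nerve or glial tissue in the ovarian values of the members was not tested.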

How the data were processed

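RNA of whole gonads was hybridised in 4 pools, 2 of ovaries and 2 of testes. The values are log2 expression values per probe set as the authors deposited them, and the submitters' processing notes name GCRMA and MAS5 without saying which step each served. Of 38535 probe sets, 153 controls were left out. Members were matched by platform symbol, and listed genes by symbol, gene number or a unique synonym, with the probe set of highest mean over all arrays standing for a gene. The members and lists were chosen with earlier results of these data known.

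Ovary and testis were compared with limma 3.58.1 in R 4.3.3 (lmFit, eBayes, two-sided, Benjamini-Hochberg over 38382 probe sets, threshold 0.05), with residual degrees of freedom of 2 and prior ones of 0.741. Precision is limited by the number of arrays. Each p-value sets the difference between organs against an error taken only from how far pools of an organ lie apart, moderated over probe sets. With 2 pools an organ, an exact permutation test reaches p = 0.333 at best. The fit was also run on simulated data with far fewer changed probe sets than were called here. No rate of false calls is taken from it. The background level was set after the values were known, and 2 of its 689 probe sets carry a chicken symbol. Named genes are the members, up to 4 called genes per direction in each list with the largest differences, and the 3 nearest profiles of each member with a 4-fold difference. PENK, CCK, UCHL1, the genes named because their calls changed with the processing, and the uncalled list genes named were picked after their values were seen. Alternatives were other normalizations, a floor, a filter on dim probe sets, other variance models, the median over probe sets, the pool number as a block and each pool left out.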

Additional observations from a re-analysis of the deposited data

How the results depend on the processing

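Over quantile normalization, median centring, a floor and each pool left out, the difference of CHGA ranged from 9.66 to 9.98, PCSK1 from -5.66 to -4.76, PCSK2 from 2.46 to 3.41 and CPE from 0.08 to 0.84, and the probe sets at least 4-fold apart numbered 6 in ovary and 2 in testis in each of these. With no overlap between pools, leaving 1 out or setting a floor cannot turn a sign. With the background level at its highest value, 11 instead of 12 member probe sets passed it, and the bound of PCSK2 fell from 5.49-fold to 3.50-fold. With a pool left out, the lone pool of that organ is assumed to vary like those of the other, and called probe sets ranged from 3734 to 6449 in ovary and 4053 to 6007 in testis. For the lists these ranges, first in ovary and then in testis, were 3 to 6 and 1 to 3 for processing enzymes, 2 to 10 and 2 to 3 for granule genes, 7 to 12 and 4 to 9 for precursors, 2 to 3 and 1 to 2 for regulators, 2 to 7 and 0 for chromaffin, 2 to 3 and 0 for cortex, 4 to 5 and 1 to 2 for neuron, and 2 to 4 and 1 for glia markers. A floor gave 8 and 3 granule genes and 1 neuron marker in testis. The block on pool number, whose same-numbered pools deviated together at r = 0.05 over probe sets, gave 3 granule genes and 1 neuron marker in testis and 5874 and 5506 probe sets in all, and ended the calls of 14 single genes of the lists. Of the genes named above, these were ZP3 (limma adjusted p = 0.0687), RPH3A (0.0851), VAMP2 (0.0731), SYT11 (0.124), HAND2 (0.0611), MAP2 (0.0736) and SOX10 (0.124). The others called toward ovary were PCSK7 (limma adjusted p = 0.0527), CADPS (0.0565), SYTL4 (0.108), VIP (0.0559) and CHRNB4 (0.111). Those called toward testis were STX1A (limma adjusted p = 0.137) and NPY (0.06). Calls toward ovary thus also ended among granule genes and chromaffin markers. The pool numbers are not stated to pair the pools. Quantile normalization and the median over probe sets each gave 1 call in ovary instead of 0 in the granin-like list, at the host gene symbol GNAS. With the median over probe sets PCSK7 reversed to -0.17 and SCAMP5 to -0.24. The cause of these changes was not tested. Dim probe sets carry little signal over background, which limits CPE and the third CHGA probe set.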
